A study of Mus musculus with 8 samples.

Results

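The 10 genes described here belong to the Hippo and TEAD pathway, and were followed through the binding map of ZFP281 in mouse mammary spheres. They were chosen by name, with earlier results of these data known. They comprise Yap1, Wwtr1, Tead1, Tead2, Tead3, Tead4, Lats1, Lats2, Amotl2 and Vgll4, 10 of 21887 protein-coding genes in the RefSeq table used. In the Hippo pathway the LATS kinases phosphorylate the coactivators YAP (gene Yap1) and TAZ (gene Wwtr1) and keep them out of the nucleus. Without that brake YAP and TAZ enter the nucleus and bind TEAD transcription factors, which carry the DNA contact and switch on genes of growth and of cell adhesion. In mammary epithelium YAP and TAZ are known for roles in stem cell properties and tumour growth. ZFP281 is a zinc finger transcription factor known from pluripotent cells.

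ZFP281 chromatin immunoprecipitation was sequenced in spheres of MMTV-HER2/Neu mice on the FvB background, in which the mouse mammary tumour virus promoter drives the oncogene in mammary epithelium. Early lesion (EL) spheres came from mice aged 14 to 18 weeks with no palpable tumour, and primary tumour (PT) spheres from mice aged over 20 weeks with tumours. Both kinds were grown for 7 days in mammosphere medium, and the tissue label of the EL samples reads mammary lung. There were 3 libraries per group, called biological replicates in the labels without a statement of which animals they came from, so a p-value measures only the spread between these libraries, which may be technical. On the autosomes, X and Y the deposited lists held 8588, 15770 and 7055 summits for the EL libraries (replicates 1 to 3, called EL1, EL2 and EL3 below) but 2897, 4030 and 6033 for the PT libraries (PT1, PT2 and PT3). Read depth is unknown, and in a bulk culture binding in more cells and stronger binding per cell cannot be told apart. A summit is the position of 1 bp at the top of a binding peak, and its score is the authors' own. Because list lengths differed, numbers of summits are given for the full lists and for equal lists made of the 2897 top-scoring summits of each library. A rank of 1 is the highest score of a list, and a gene was counted when a summit lay in it or within 20 kb of either end. A summit list holds no expression, so the labelled cell type could not be checked against its markers.

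ZFP281 summits lay near 9 of the 10 genes in at least 1 full list (51.4% of all protein-coding genes), and Lats1 was the exception. In equal lists the number was 7 (27.9% of all genes). In full lists 5 genes, Yap1, Wwtr1, Tead1, Amotl2 and Vgll4, had a summit in all 6 libraries, where 13.0% of all protein-coding genes did. Among the 10431 genes as long as the shortest to the longest of the 10 (16.3 to 227 kb) the share was 15%. In equal lists Yap1, Wwtr1 and Tead1 had a summit in all 6 libraries, against 8.76% of all genes and 9.93% of those of like length. Because the genes were chosen with earlier results known, these shares are a description and not a test. No gene of the 10 had a summit in all EL and no PT libraries (5.19% of all genes in full lists, 1.64% in equal lists) or the reverse (0.206% and 1.42%). The grid of summit numbers shows Tead1, Tead3 and Vgll4 with the highest single counts and Lats1 empty.

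**Figure D1:**
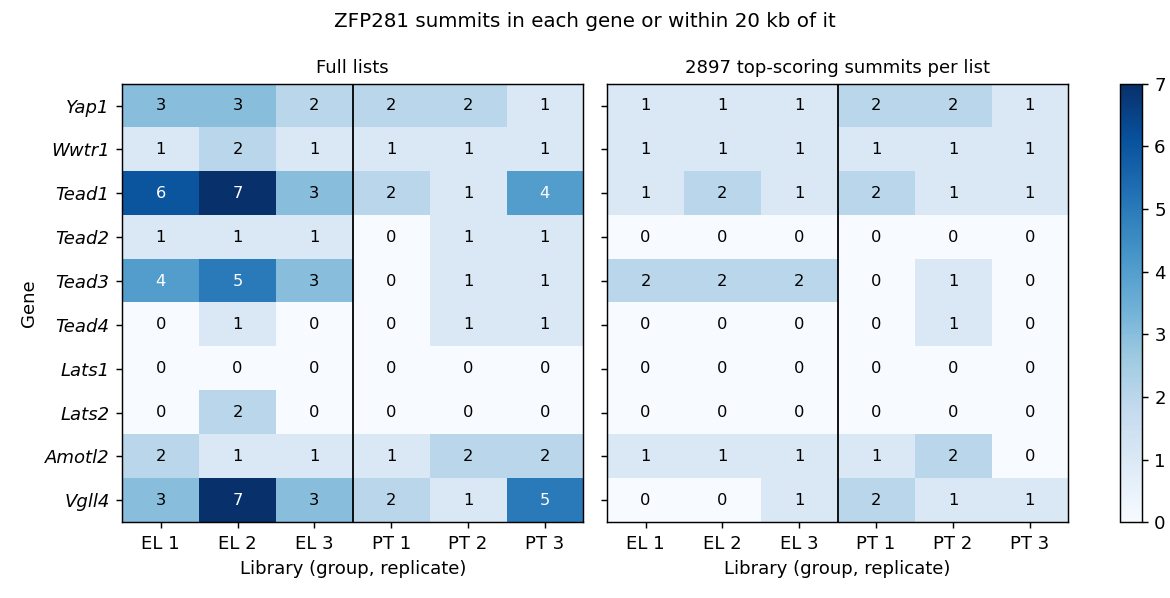
Number of ZFP281 summits in each of the 10 genes or within 20 kb of it (rows) in each library (columns, EL left and PT right of the line), in full lists and in the 2897 top-scoring summits per list. Tead3 holds 3 to 5 summits in EL and 0 or 1 in PT in full lists, and Lats1 holds 0 everywhere.

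Pooled over the 10 genes, the EL mean was higher in full lists, with overlap of the groups, and the difference was -0.333 summits, EL minus PT, in equal lists. Full lists held 20, 29 and 14 summits near these genes in EL1, EL2 and EL3, against 8, 10 and 16 in PT1, PT2 and PT3. The groups overlapped, at means of 21.0 ± 7.55 and 11.3 ± 4.16 (SD, n = 3 each, exact permutation p = 0.2, two-sided). An exact test of 3 against 3 libraries cannot go below p = 0.1, so no such comparison could pass 0.05. Without EL2, the longest list, the difference of 9.67 summits fell to 5.67. Equal lists held 6, 7 and 7 in EL against 8, 9 and 4 in the PT libraries (exact permutation p = 1.0, two-sided). Per 1000 summits of its full list a library placed 2.05 ± 0.252 near the 10 genes in EL and 2.63 ± 0.141 in PT (SD, n = 3 each, exact permutation p = 0.1, two-sided). This direction turned in lists limited to a score of at least 10, where EL exceeded PT by 0.443, and with a window of 50 kb the difference of -0.581, EL minus PT, shrank to -0.0641 (exact permutation p = 0.6, two-sided). The wider window raised the pooled difference of 9.67 summits to 15.3 (exact permutation p = 0.1, two-sided). The density of equal-list summits in the windows of the 10 genes was 5.81 ± 0.503 per Mb in EL and 6.10 ± 2.3 per Mb in PT, beside 1.80 per Mb in the windows of all protein-coding genes in both groups (SD, n = 3 each).

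**Figure D2:**
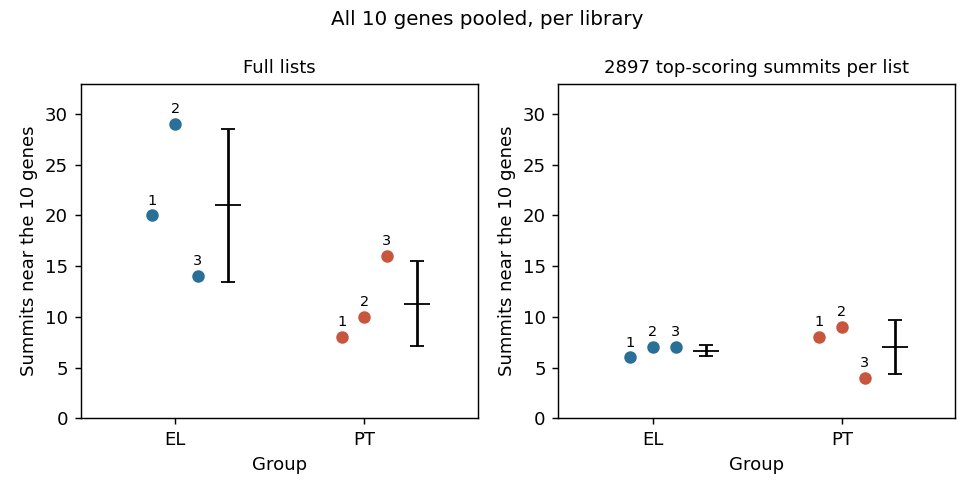
Summits near the 10 genes per library (points, with the replicate number above), with the group mean and SD (bars, n = 3), in full lists and in equal lists. In full lists PT3, at 16, lies above EL3, at 14, and in equal lists the EL values of 6 to 7 lie within the PT range of 4 to 9.

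Yap1, which encodes the coactivator YAP, carried a high-scoring ZFP281 region at its 5′ end, at or above percentile 89.8 of every list. Neighbouring summits, from whichever library, were joined into a region when no more than 200 bp separated them. The Yap1 region (chromosome 9, 8003907 to 8003982, mm10) lay inside the gene, 652 bp downstream of the listed transcript start. It ranked 98, 92 and 57 in EL1, EL2 and EL3, with scores of 77.8, 143 and 81.3, against 297, 124 and 100 in PT1, PT2 and PT3, with scores of 29.5, 47.9 and 77.9. Every EL rank was above every PT rank, though EL1 and PT3 were only 2 places apart. The mean ranks were 82.33 ± 22.1 and 173.7 ± 107 (SD, n = 3 each, exact permutation p = 0.1, two-sided). Without PT1 the difference of -91.33 places, EL minus PT, shrank to -29.67. Among 996 regions present in all 6 equal lists, 18.0% ranked higher in every EL than in every PT library and 13.9% the other way.

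Other Yap1 summits were lower in their lists. A region 26.1 kb inside the gene (chromosome 9, 7978534 to 7978641) was found in the EL libraries alone, at ranks 6655, 7388 and 4756, all outside the equal lists. A class of all 3 EL and no PT libraries held 10% of all 19317 regions in full lists. A single summit of PT1, at rank 2605, lay 243 bp upstream of the start. In full lists Yap1 held 3, 3 and 2 summits in EL against 2, 2 and 1 in PT, and in equal lists 1, 1 and 1 in EL against 2, 2 and 1 in PT, so the direction of the count turned with list length.

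Wwtr1, the gene of TAZ, also had a shared region at its 5′ end, and this one stood much higher in the EL lists. The region (chromosome 3, 57575335 to 57575425) lay inside the gene, 496 and 530 bp downstream of the 2 listed transcript starts. Its ranks were 714, 970 and 516 in EL1, EL2 and EL3, against 2756, 1481 and 2489 in PT1, PT2 and PT3. All 3 EL libraries placed it in their first 1000 summits and no PT library did. Of the 996 regions in all 6 equal lists, 18.0% likewise ranked higher in every EL than in every PT library. The EL scores were 32.7, 51.4 and 32.5 and the PT scores 3.70, 12.3 and 10.6. The mean ranks were 733.3 ± 228 in EL and 2242 ± 672 in PT, a difference of -1509 places (SD, n = 3 each, exact permutation p = 0.1, two-sided), and it lay between -1889 and -1252 with any library left out. The number of Wwtr1 summits did not show this, at 1 in every library except EL2, which had 2.

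Tead1 showed the opposite order of ranks at its leading region. TEAD1 is one of the 4 DNA-binding partners of YAP and TAZ. The region (chromosome 7, 112823624 to 112823748) lay deep inside the gene, 83.1 kb from the upper gene boundary and 130 kb from the nearest boundary of another protein-coding gene. It ranked 1251, 1471 and 1502 in EL1, EL2 and EL3, against 741, 451 and 375 in PT1, PT2 and PT3. Every PT library ranked it higher than every EL library, with means of 1408 ± 137 in EL and 522.3 ± 193 in PT (SD, n = 3 each, exact permutation p = 0.1, two-sided). Of the 996 regions in all 6 equal lists, 13.9% had this order. With any library left out the difference of 885.7 places stayed between 812 and 995. The scores of the region overlapped, at 23.0, 38.9 and 17.4 in EL1, EL2 and EL3 and 16.6, 26.1 and 41.6 in PT1, PT2 and PT3. Its percentiles in the full lists overlapped too, at 85.4, 90.7 and 78.7 in EL against 74.5, 88.8 and 93.8 in PT. The order was thus one of rank alone.

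The number of Tead1 summits ran the other way in full lists. EL libraries had 6, 7 and 3, and PT libraries 2, 1 and 4 (exact permutation p = 0.2, two-sided). The EL excess lay outside the top-scoring summits, since equal lists held 1, 2 and 1 summits in EL against 2, 1 and 1 in PT. Of the 9 Tead1 regions 5 had summits in EL libraries and none in PT, and 1 the reverse, where 63.3% and 8.81% of all regions did. Among them a region 16.0 kb below the lower gene boundary (chromosome 7, 112663368 to 112663423) was found in all 3 EL libraries, at ranks 3759, 2244 and 4269, and was inside the equal list of EL2 alone.

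**Figure D3:**
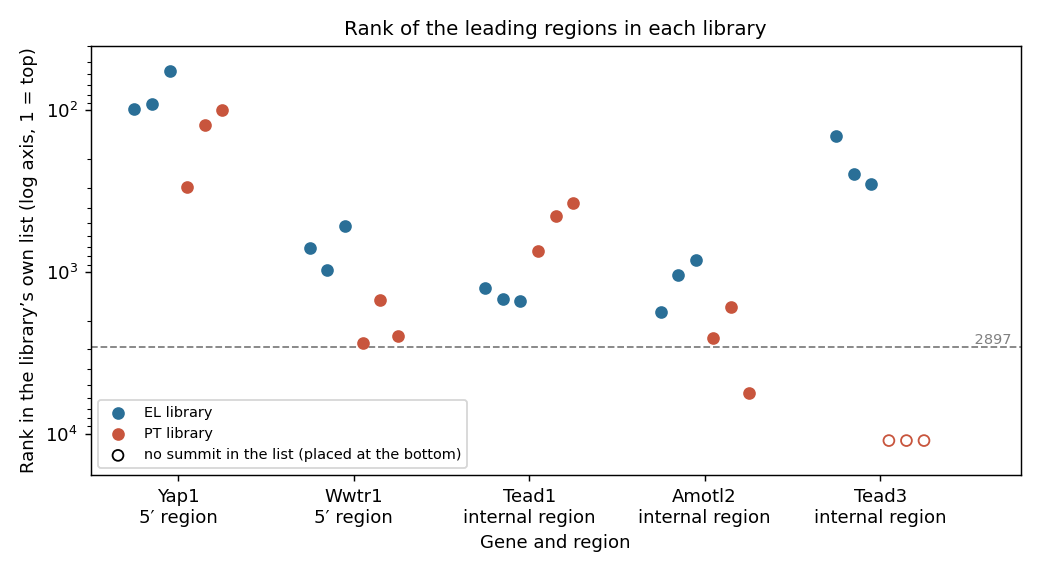
Rank of the leading region of 5 genes in each library's own full list (log axis, 1 at the top), with EL in blue and PT in red, a dashed line at 2897 and open circles for lists without the region. The EL ranks lie above the PT ranks at Yap1 and Wwtr1 and below them at Tead1, the groups overlap at Amotl2, and the Tead3 region is in the 3 EL lists alone.

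Tead3, another TEAD gene, was the 1 gene of the 10 whose groups did not overlap in summit number. It held 4, 5 and 3 summits in EL1, EL2 and EL3, against 0, 1 and 1 in PT1, PT2 and PT3, and in equal lists 2, 2 and 2 against 0, 1 and 0. The full-list means were 4.0 ± 1.0 and 0.667 ± 0.577 (SD, n = 3 each, exact permutation p = 0.1, two-sided). Adjusted over 11259 genes by the Benjamini-Hochberg method that exact permutation p became 0.54. More summits in every EL than in every PT library were also found for 9.26% of all genes in full lists and 2.12% in equal lists. The reverse order was found for none of the 10 (0.274% and 1.83% of all genes).

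The highest-ranking Tead3 region was found in EL alone. It lay inside the gene (chromosome 17, 28345986 to 28345996), 4814 bp downstream of the outermost listed transcript start, and its summits fell within 11 bp of one another. It ranked 144 of 8588, 246 of 15770 and 287 of 7055 in EL1, EL2 and EL3, with scores of 67.0, 99.8 and 42.5. None of the PT lists held it, including the list of PT3 with 6033 summits. In equal lists 7.29% of all regions were in all 3 EL and no PT libraries. A weaker region 6351 bp from the same boundary (chromosome 17, 28344401 to 28344508) was also in the 3 EL lists alone, at ranks 6938, 11184 and 5277. A list without a summit does not give the number of reads there.

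At the 5′ end of Tead3 lay another region, shared by 5 libraries, which is described outside the naming rule and was chosen after its values were seen. Its summits (chromosome 17, 28350486 to 28350540) lay 87 bp downstream of the middle one of 3 listed starts and 167 bp upstream of the innermost, so the RefSeq promoter of the innermost start holds them. The ranks were 1464, 1544 and 1802 in EL1, EL2 and EL3, against 2010 and 2942 in PT2 and PT3, and PT1 had none. The region also lay 1002 bp from the boundary of Tulp1. The promoter sequence is shown because, among the promoters of these genes in the table, it alone holds summits of more than 1 library (RefSeq, GRCm38.p6, chr17:28350297-28350596, minus strand), with the 55 bases between the outermost summits in capitals.
Tead3 promoter: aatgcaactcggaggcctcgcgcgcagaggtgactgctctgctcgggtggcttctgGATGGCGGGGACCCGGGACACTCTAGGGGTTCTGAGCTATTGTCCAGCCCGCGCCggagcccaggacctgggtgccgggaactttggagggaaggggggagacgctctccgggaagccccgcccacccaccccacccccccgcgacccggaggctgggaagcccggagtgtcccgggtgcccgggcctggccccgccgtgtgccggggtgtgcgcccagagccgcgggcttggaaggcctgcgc
The capitals run from base 57 to base 111 of the 300 bases. Their GC content was 67.3%, and that of the whole window 73.0%, beside a median of 52.7% over all promoters in the table.

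Tead2 and Tead4, the other TEAD genes, had 1 region each, and neither entered the equal list of an EL library. The Tead2 region (chromosome 7, 45216603 to 45216686) lay 852 bp downstream of the listed start. It ranked 3680, 4400 and 5203 in EL1, EL2 and EL3, against 3388 and 5753 in PT2 and PT3, with no summit in PT1. These ranks overlapped, but the scores did not, at 10.4, 16.3 and 5.73 in EL against 5.13 and 2.78 in PT2 and PT3. Nor did the percentiles in the full lists, at 57.2, 72.1 and 26.3 against 16.0 and 4.66. The Tead4 region (chromosome 6, 128296611 to 128296649) lay inside the gene, 4183 bp from its upper boundary, and was found in EL2 (rank 4439) and in PT2 and PT3 (ranks 2575 and 3444). It was inside the equal list of PT2 alone. The Tead4 summit numbers overlapped, at 0, 1 and 0 in EL against 0, 1 and 1 in PT. The EL2 rank of the region was below both PT ranks, but its EL2 score of 16.3 was above those of PT2 and PT3 (7.53 and 7.7).

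The kinase genes were nearly empty. Lats1 had no summit in any library within 20 kb. Lats2 had 2 summits, both in EL2, the longest list, at ranks 5961 and 12406. They lay 1582 and 187 bp downstream of its first listed start and inside the overlapping predicted gene Gm52140.

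Amotl2, a scaffold protein of the angiomotin family that binds YAP and is itself a target of YAP and TEAD, was bound inside the gene in both groups. The region (chromosome 9, 102726311 to 102726410) lay 8556 bp downstream of the listed start. It ranked 1777, 1049 and 845 in EL1, EL2 and EL3, against 2558, 1635 and 5551 in PT1, PT2 and PT3. The ranks overlapped, because PT2 ranked it above EL1, and PT3 had it outside its equal list. Its scores did not overlap, at 18.2, 48.6 and 24.8 in EL1, EL2 and EL3 and 4.88, 11.3 and 3.38 in PT1, PT2 and PT3. Nor did its percentiles in the full lists, at 79.3, 93.4 and 88.0 in EL against 11.7, 59.5 and 8.01 in PT. The number of Amotl2 summits was 2, 1 and 1 in EL against 1, 2 and 2 in PT.

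Vgll4, a cofactor that competes with YAP for TEAD binding, was covered by many weak regions rather than a strong one. It held 3, 7 and 3 summits in EL against 2, 1 and 5 in PT, with overlap of the groups (exact permutation p = 0.5, two-sided). Its 9 regions included none shared by all 6 libraries and none found in all EL and no PT libraries. In equal lists the numbers were 0, 0 and 1 in EL against 2, 1 and 1 in PT, a difference of -1.0 (exact permutation p = 0.3, two-sided), so the direction turned with list length. Without EL2 the full-list difference of 1.67 was 0.333, and without PT3 it was 2.83. The best placed region of the naming rule (chromosome 6, 114931370 to 114931449) lay 38.6 kb inside the gene. It ranked 3711, 3641 and 4898 in EL1, EL2 and EL3, against 2391 and 1565 in PT1 and PT3.

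**Figure D4:**
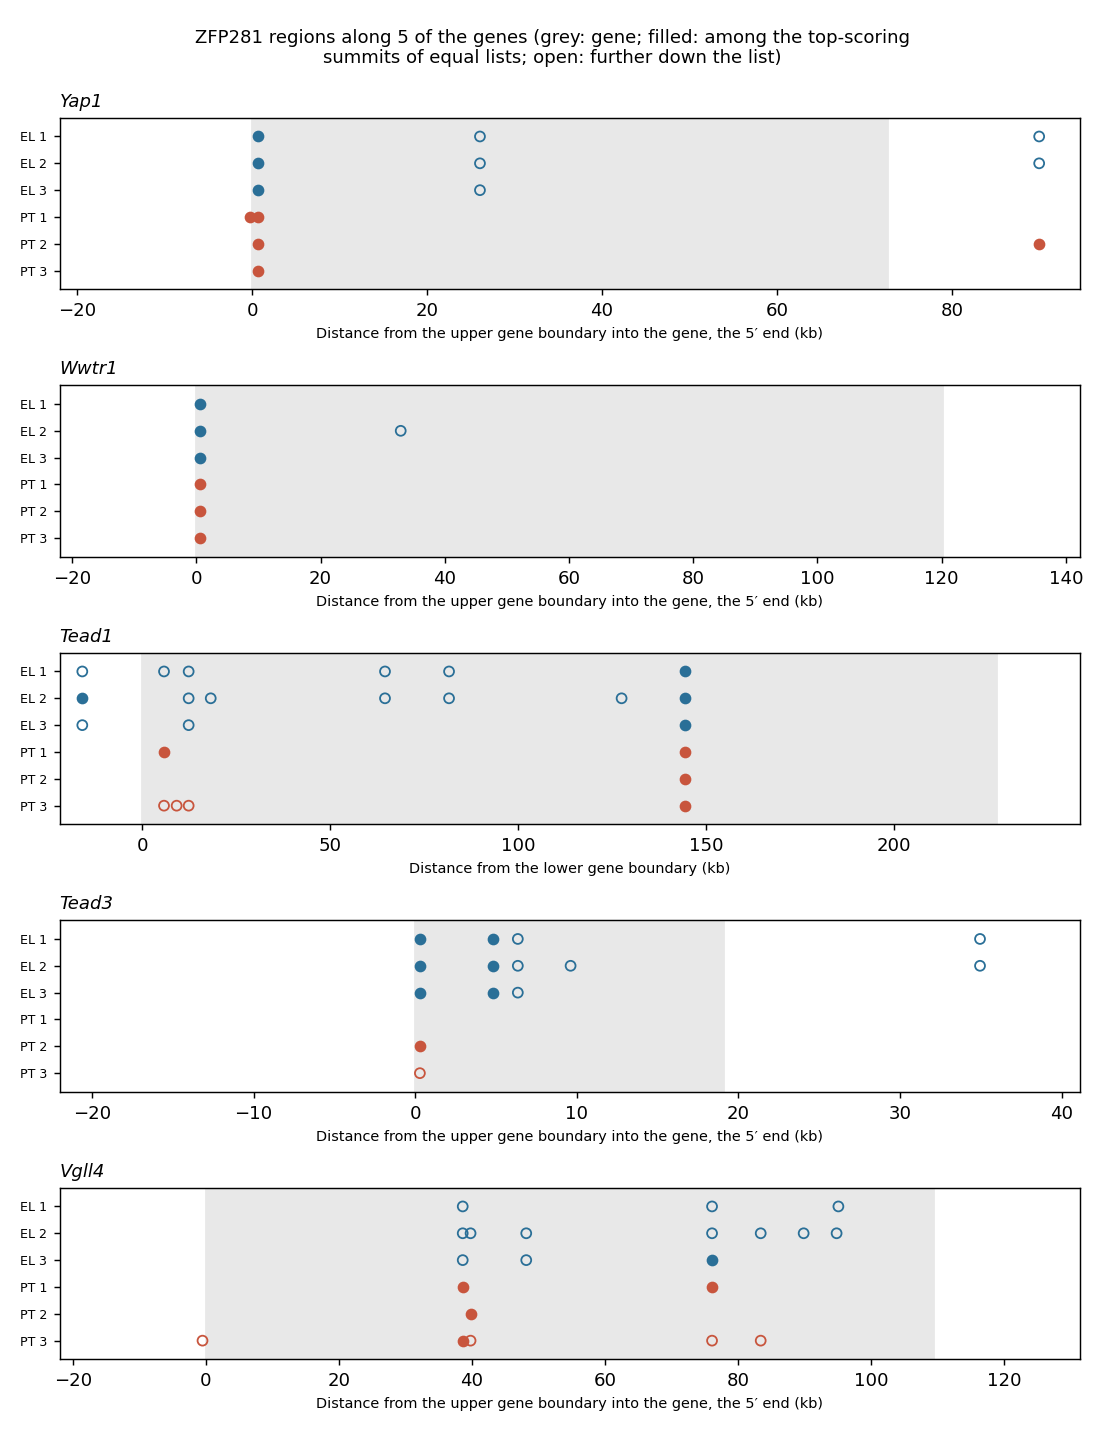
Regions along 5 genes by library, as distance in kb from the 5′ boundary (Yap1, Wwtr1, Tead3, Vgll4) or from the lower boundary (Tead1), with the gene in grey. Filled points are among the 2897 top-scoring summits of the library and open points lie further down its list, and the filled points of Yap1, Wwtr1 and Tead3 in EL gather within 5 kb of the 5′ end.

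Over the 10 genes there were 35 regions, of which 4 were in all 6 libraries, at Yap1, Wwtr1, Tead1 and Amotl2 (8.14% of all regions). Another 4, at Yap1, Tead1 and Tead3, were in all EL and no PT libraries (10% of all regions), and 0 in all PT and no EL libraries (0.704% of all regions in full lists, 6.29% in equal lists). Of the 4 EL regions only the highest-ranking Tead3 region was so classed in equal lists. Of the 12 regions seen in a single library, 8 came from EL2.

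Promoters of these genes shared letters that the choice of genes did not use. The table holds promoters of 8 of the 10 genes, from 250 bases before to 50 bases after a transcript start, and Tead1 and Tead4 are not among them. The TEAD core GGAATG, on either strand, was found in promoters of 6 of the 8 genes (75.0%), and in those of 16.6% of the genes in the table. They are shown because GGAATG is the core that TEAD proteins bind, and the search window alone places every copy near a start. Each line gives the gene's strand, with the core (CATTCC on the other strand) in capitals and 15 bases on either side, for the copy nearest to a listed start.
Yap1: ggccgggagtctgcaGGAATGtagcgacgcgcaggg
Wwtr1: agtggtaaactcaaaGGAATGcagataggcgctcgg
Tead3: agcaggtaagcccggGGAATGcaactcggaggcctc
Lats2: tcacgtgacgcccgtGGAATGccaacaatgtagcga
Amotl2: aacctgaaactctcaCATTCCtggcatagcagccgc
Vgll4: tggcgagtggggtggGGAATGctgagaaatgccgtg
The copies begin 141, 136, 65 and 82 bp upstream of the start at Yap1, Wwtr1, Amotl2 and Vgll4 and 2 and 4 bp downstream at Tead3 and Lats2 (RefSeq, GRCm38.p6, at chr9:8004717-8004752, chr3:57576026-57576061, chr9:102717724-102717759, chr6:114969265-114969300, chr17:28350578-28350613 and chr14:57746099-57746134). The G-rich letters GGGGAGGG, known from ZFP281 motifs, were in none of these promoters on either strand, nor were the same letters with 1 more G at either end, and the shares of genes in the table were 12% and 3.73%. No copy of GGAATG here therefore overlapped either of them. These are matches of letters in a window, and the leading regions of Yap1, Wwtr1, Tead1 and Amotl2 and the highest-ranking Tead3 region lie outside these windows.

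Other genes of the pathway were counted the same way. Of 24 Hippo core and regulator genes, 8 had a summit in all 6 full lists (13.0% of all genes), led by Sav1, the scaffold of the MST kinases, Dchs1, a giant cadherin, Ajuba, a LIM protein that holds back LATS, and Nf2, which encodes the tumour suppressor Merlin. In equal lists these 4 alone had one in all 6 libraries (8.76% of all genes). Vgll3, a relative of Vgll4, had one in all EL and no PT libraries (5.19% of all genes). Of the MST kinase genes, named after their values were seen, Stk3 had no summit and Stk4 had one in 3 EL libraries and 1 PT library. Of 19 YAP and TEAD target genes, 3 had a summit in all 6 full lists (13.0% of all genes). They were Axl, a receptor tyrosine kinase gene, Tgfb2, a ligand gene, and Arhgef17, and in equal lists Axl alone did (8.76% of all genes). Myof and Nuak2 had one in all EL and no PT libraries (5.19% of all genes), and Myof was so classed in equal lists too (1.64% of all genes). EL2 had a summit near all 19 targets, EL1 and EL3 near 10 each, and PT1, PT2 and PT3 near 3, 6 and 6. The shares of all genes were 34.7%, 48.4% and 30.7% in EL1, EL2 and EL3 and 16.7%, 21.6% and 29.0% in PT1, PT2 and PT3. In equal lists the EL libraries had one near 7, 7 and 6 targets, against 3, 2 and 5 in PT, and near 10, 8 and 11 core genes, against 9, 7 and 9. The usual reporter genes of YAP activity, also named after their values were seen, were nearly absent, since Ccn2 and Ankrd1 had a summit in EL2 alone and Ccn1 in 2 EL libraries. In full lists the median number of summits per gene, averaged over the libraries of a group, was 1.33 in EL against 0.833 in PT for the 10 genes, 1.33 and 0.333 for the core genes, 1.00 and 0 for the targets, and 0 and 0 over all protein-coding genes. In equal lists it was 0.667 in both groups for the 10 genes, 0.333 and 0 for the core genes, and 0 and 0 for the targets and over all genes. The median length was 64.6 kb for the 10 genes and 17.2 kb over all genes.

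Markers of other cell types were counted in the same way. Of 10 fibroblast marker genes 7, 8 and 7 had a summit in EL1, EL2 and EL3, against 0, 1 and 4 in PT1, PT2 and PT3, and in equal lists 3, 5 and 5 against 0, 0 and 0. Col1a2, Dcn and Pdgfrb had one in all EL and no PT full lists (5.19% of all genes), and Lum and Fap had none in any library. In equal lists Col1a2, Col3a1 and Col1a1 were in this class (1.64% of all genes), and Dcn and Pdgfrb were not. Of 10 leukocyte markers 2, 3 and 2 had one in EL against 2, 2 and 2 in PT, and in equal lists 1, 1 and 1 against 2, 2 and 2. That equal-list difference was Cd4 alone, since Cd68 was in all 6 equal lists. Of 10 mammary epithelial markers 4, 6 and 4 had one in EL against 3, 5 and 6 in PT, and in equal lists 1, 2 and 1 against 3, 3 and 4. Krt14, Krt5, Epcam and Prlr had none in any library. Krt8 and Krt18 had the same best-summit percentile in PT1 (51.1) and in PT2 (81.4), so they are not separate counts there. Cdh1, the gene of E-cadherin, and Cd4 had an equal-list summit in all PT and no EL libraries (1.42% of all genes). Among all protein-coding genes 34.7%, 48.4% and 30.7% had a summit in EL, against 16.7%, 21.6% and 29.0% in PT, and in equal lists 16.9%, 17.6% and 17.2% against 16.7%, 16.9% and 16.9%. In equal lists the fibroblast counts were higher in every EL library, as the Tead3 counts and the Wwtr1 rank were. The epithelial counts and, by Cd4 alone, the leukocyte counts were higher in every PT library, as the Tead1 rank was. The epithelial difference came from few genes. They were Cdh1, Krt18 (equal-list summits in 1 EL and 3 PT libraries) and Gata3 (0 EL and 1 PT), since Krt8 was in all 6 equal lists. The part of cell type makeup in these counts and ranks was not tested.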

How the data were processed

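ZFP281 libraries of 3 EL and 3 PT sphere cultures were used, and the input of each group was not analysed here. The submitters' processing notes name the build mm10 and, among tools, Bowtie2 2.3.4.3 and Picard, but no peak caller. For each library the authors deposited 1 summit list, whose score was taken for a −log10 q-value. The ground was that the lowest score of every list lay above 1.3, from 1.30 in EL3 to 1.55 in PT2. That reading comes from the values.

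Positions are 1-based, and only the autosomes, X and Y entered, which left out 0 to 4 summits per deposited list. Genes and promoters came from RefSeq tables of GRCm38.p6, the mm10 build, without exons, so exon and intron are not stated. The planned sequences under summits were not read, for want of a genome, and RefSeq promoters were used. Numbers of summits were compared by exact permutation over libraries, two-sided, run on every protein-coding gene with Benjamini-Hochberg adjustment. Comparison of ranks and the shares among genes of like length were added after seeing the data. Members and lists were chosen with earlier results of these data known. All 10 genes are named. For each, regions in all 6 libraries or in all of 1 group and none of the other are named, otherwise the one in the most libraries, and of each pathway list up to 4 genes per class. Alternatives were equal lists, scores of at least 5 and 10, windows of 0, 5 and 50 kb, merging at 50, 500 and 1000 bp, merged regions, each library left out and a replicate block. No pair of lists shared more than 81 identical positions. Counting was tested on simulated data (Python 3.11.15, numpy 2.4.6, pandas 2.3.3, scipy 1.17.1).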

Additional observations from a re-analysis of the deposited data

How the results depend on the processing

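No exact test here could pass 0.05, so settings are compared by direction and size. Equal lists turned the difference in pooled summits to -0.333 (EL minus PT), in members with a summit to 0, in Yap1 summits to -0.667 and in Vgll4 summits to -1.0. They left 3 members in all 6 libraries and 1 region in all EL and no PT libraries. The difference per 1000 summits turned to 0.0612 at a score of at least 5 and 0.443 at 10, and shrank from -0.581 to -0.0641 in a 50 kb window, where the pooled difference was 15.3. At 5 there were 3 members and 2 regions in all 6 libraries, and at 10 there were 2 members and 2 regions, with 1 member and 2 regions in all EL and no PT libraries. Amotl2 turned to 0.333 and 0.667 at these scores and to 2.67 in a 50 kb window, and Tead4 to 0.333 at 10. Regions in all EL and no PT libraries numbered 7 in the 50 kb window and 2 with merging at 50 bp. With a library left out, that number was 4 to 7 (7 without EL replicate 3) and the difference in members with a summit -0.333 (without PT replicate 1) to 1.17. The Vgll4 difference of 1.67 fell to 0.333 without EL replicate 2. Tead3 kept its direction in all 12 alternatives. The causes were not tested beyond what each setting removes. Replicate numbers did not pair the libraries: correlations of same-numbered deviations over 11259 genes were -0.00145, -0.0242 and -0.112, and 0 of 3 EL libraries correlated best with its own number. With a replicate block (smallest p 0.25) the exact permutation p was 0.5 for pooled summits, 0.75 for members with a summit and 0.25 per 1000 summits. Read depth is unknown, which limits every statement on an absent summit.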

Other observations

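Of the 10 genes Yap1 had the highest best-summit percentile, averaging 97.1 over 6 libraries. The protein-coding genes over 1 Mb away with the nearest values were Rhbdd3 and Emid1, which share their best summits and differed from Yap1 by a mean of 0.405 percentile points per library, and Asb16, which differed by 0.483. This likeness is over 6 libraries and describes position in the lists only.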
